A study of Mus musculus with 7 samples.

Results

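The genes described are 6 regulators of differentiating spermatogonia, namely *Kit*, *Dmrt1*, *Dmrtb1*, *Sohlh1*, *Sohlh2* and *Rhox13*. They were chosen by name, and their estimated counts and TPM (transcripts scaled to a fixed total, a level per transcript length) were read per transcript and summed by gene. The 6 genes have 8 transcripts among the 43020 transcripts of 21928 genes in the tables. Whole testes enriched for preleptotene cells were taken for bulk RNA-seq from 4 wild-type pups and 3 pups lacking *Meioc*, all on a C57BL/6N background, with 1 library from 1.5 testes of a single pup. The null allele is *Meioc* tm1.1Dpc. Pups of both genotypes were dosed with WIN18446, which blocks the making of retinoic acid (0.1 mg/g, days 2 to 8 after birth), and then with retinoic acid itself (0.0125 mg/g, day 9). Collection followed 6.75 days later, so that germ cells that answered retinoic acid together were near the preleptotene stage, the last before meiotic prophase. Whole testes also hold Sertoli, Leydig, peritubular and other somatic cells.

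Spermatogonia differentiate when retinoic acid makes undifferentiated cells gain KIT, a receptor tyrosine kinase whose ligand, KITL, is made by Sertoli cells. DMRT1 and DMRTB1 (also called DMRT6) are DM domain transcription factors; DMRT1 holds off meiosis in spermatogonia and also acts in Sertoli cells, and DMRTB1 acts in the change from the spermatogonial to the meiotic program. SOHLH1 and SOHLH2 are bHLH factors that drive spermatogonial differentiation, and RHOX13 is a germ cell homeobox factor encoded on the X chromosome. MEIOC, the protein missing in the null pups, binds RNA together with YTHDC2 and is needed for germ cells to leave the mitotic program.

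In the GRCm38 annotation (GENCODE vM21), *Kit* lies on the plus strand at chr5:75574916-75656722 and *Dmrt1* on the plus strand at chr19:25505618-25604329. *Dmrtb1* lies on the minus strand at chr4:107676290-107684230 and *Sohlh1* on the minus strand at chr2:25842995-25847248. *Sohlh2* (chr3:55182028-55209957) and *Rhox13* (chrX:38121219-38129967) are on the plus strand. None of the words of 31 bases in the 8 transcripts, the word length by which pseudoalignment is usually done, occurred in a transcript of another gene in the tables. The 2 *Kit* transcripts are nearly the same: Kit-201 holds 12 bases that Kit-204 lacks, and Kit-204 starts 39 bases further 5′. The 12 bases encode part of the juxtamembrane extracellular region and distinguish the known GNNK+ and GNNK- forms of KIT. They are shown in capitals because the split of *Kit* counts between its transcripts rests on few positions. The stretch is placed as far 3′ as the match allows, at bases 1635 to 1646 of Kit-201, with 24 bases on either side.
Kit-201: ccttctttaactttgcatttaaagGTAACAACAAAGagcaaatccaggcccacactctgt
Kit-204: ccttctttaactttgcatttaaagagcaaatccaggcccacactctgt
Of the 5184 words of Kit-201, 38 (0.733%) occurred in no other transcript, and of the 5211 words of Kit-204, 65 (1.247%).

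Promoter sequences of 5 of the 6 members were found in RefSeq (GRCm38.p6), as windows from 250 bases before the transcription start to 50 bases after it (all but *Dmrt1*; *Kit* and *Dmrtb1* have 2 windows each). The bases before the RefSeq start, ending at most 20 bases into the annotated gene, are printed for *Kit* and *Rhox13*, the members that passed the test below, and for *Sohlh1* and *Sohlh2*, which hold motifs of factors tied to meiotic entry. Capitals mark CACGTG, the E-box bound by MGA with MAX, GCGGGA, an E2F motif, and CNCCTCAG, the STRA8 with MEIOSIN motif, on either strand.
Kit: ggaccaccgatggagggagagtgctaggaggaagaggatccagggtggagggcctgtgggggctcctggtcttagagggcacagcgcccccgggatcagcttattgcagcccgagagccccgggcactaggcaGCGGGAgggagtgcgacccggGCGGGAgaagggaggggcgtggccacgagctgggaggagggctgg
Rhox13: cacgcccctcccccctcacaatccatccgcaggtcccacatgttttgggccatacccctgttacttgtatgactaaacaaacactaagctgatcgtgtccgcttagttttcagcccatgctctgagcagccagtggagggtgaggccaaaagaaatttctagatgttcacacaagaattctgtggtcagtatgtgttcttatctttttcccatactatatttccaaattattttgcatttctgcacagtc
Sohlh1: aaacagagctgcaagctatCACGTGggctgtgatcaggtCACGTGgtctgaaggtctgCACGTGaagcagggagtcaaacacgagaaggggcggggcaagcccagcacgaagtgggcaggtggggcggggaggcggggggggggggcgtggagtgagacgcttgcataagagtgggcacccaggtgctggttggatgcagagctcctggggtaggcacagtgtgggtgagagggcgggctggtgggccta
Sohlh2: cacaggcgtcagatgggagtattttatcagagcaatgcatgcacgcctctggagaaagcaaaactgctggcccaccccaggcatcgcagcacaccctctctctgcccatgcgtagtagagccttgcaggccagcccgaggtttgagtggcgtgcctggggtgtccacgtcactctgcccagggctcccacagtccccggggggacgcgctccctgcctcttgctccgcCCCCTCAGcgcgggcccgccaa
These are chr5:75574737-75574935 (plus strand), chrX:38120590-38120839 (plus strand), chr2:25847249-25847498 (minus strand) and chr3:55181794-55182043 (plus strand). The *Kit* stretch ends 20 bases into the annotated gene, at a point before the RefSeq start. Within the 300 base window, *Kit* held 2 GCGGGA motifs, *Sohlh1* held 3 CACGTG motifs and *Sohlh2* held 1 CNCCTCAG motif. Of 32851 RefSeq promoter windows, 6562 held GCGGGA, 7.15% held CACGTG and 7.94% held CNCCTCAG. The windows of *Rhox13* and *Dmrtb1* held none of these 3 motifs. No member window held ACATTGT, the core of the DMRT1 motif, which 2.96% of all windows held. The retinoic acid receptor core motif AGGTCA, in 16.3% of all windows, occurred once, in the *Sohlh1* window. The broader E-box CANNTG, which includes CACGTG, was in all 5 member genes' windows and in 72.3% of all windows.

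The libraries held 12537852 to 20552702 estimated counts, so 3 counts equalled 0.146 to 0.24 CPM (counts scaled to library size and by TMM). *Meioc*, the targeted gene, lay between 467.7 and 720.0 CPM in the wild-type libraries and between 299.6 and 412.9 CPM in the null libraries, without overlap, so transcripts of the gene were still counted in the null. Each library correlated better on average with its own group (0.9797 to 0.9839, Pearson's r across genes on log2 CPM) than with the other group (0.9591 to 0.9747). Wild-type replicate 1 and null replicate 1 were nearest to the other group. A fold change above 1 means more in wild type; changes were tested by edgeR's quasi-likelihood test over 13630 genes with Benjamini-Hochberg adjustment; a gene is called when its adjusted p is below 0.05.

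Of the 6 regulators, *Kit* and *Rhox13* were higher in wild-type than in *Meioc*-null testes, and the other 4 did not pass the test. Both called genes also had every wild-type library above every null library. Of all 13630 genes, 7.77% were called higher in wild type, 3.33% were called lower, and 15.4% had every wild-type library above every null library. An unadjusted edgeR p below 0.05 was found for 4133 of them, and DESeq2 called 2331. The fitted difference was above 0 for all 6 members, with a median log2 fold change of 0.28 beside -0.01 for all genes tested. In bulk RNA, fewer cells of a type and less RNA per cell cannot be told apart. The cell types that make these transcripts could not be separated either.

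**Figure D1:**
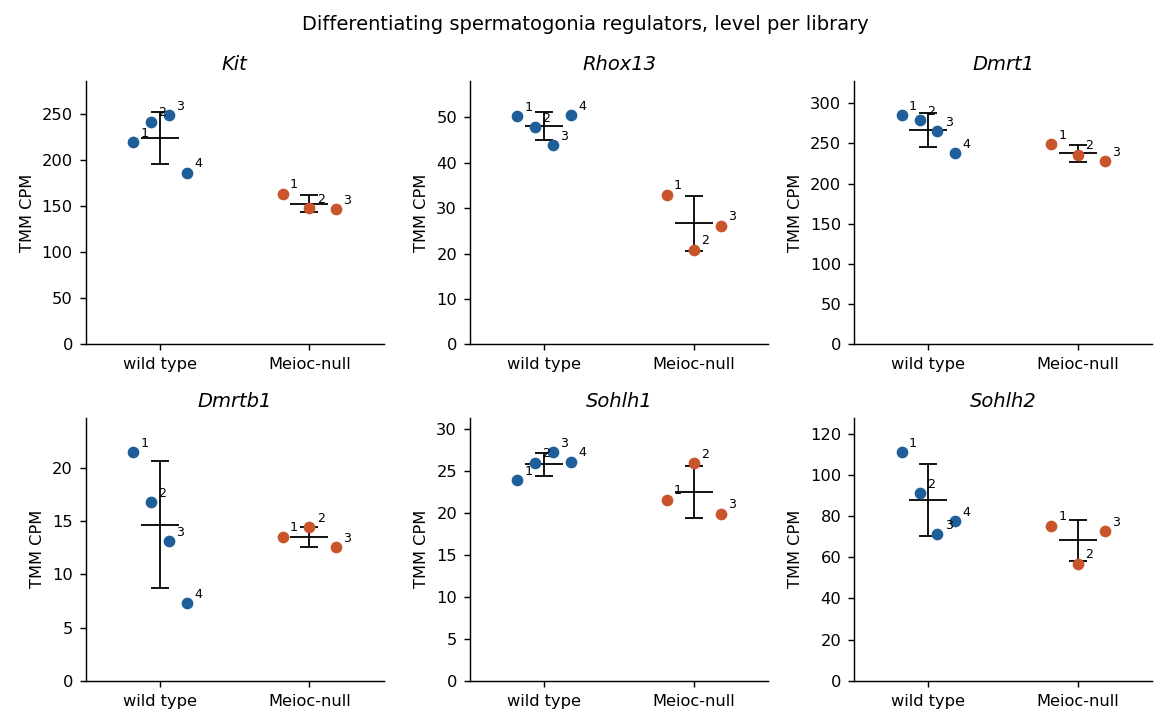
Level of each regulator (vertical axis, TMM-scaled CPM from 0) in the 4 wild-type (blue) and 3 *Meioc*-null (orange) libraries, numbered by replicate, with the group mean and SD in black. The groups separate for *Kit* and *Rhox13*, and the wild-type libraries of *Dmrtb1* are spread from 7.32 to 21.5 CPM.

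*Kit* was measured at 218.9, 241.3, 248.0 and 185.8 CPM in wild-type replicates 1 to 4 and at 162.9, 147.1 and 146.4 CPM in null replicates 1 to 3. Wild-type replicate 4 was the lowest of its group and still above every null library. The means were 223.5 ± 28.1 CPM (SD, n = 4) in wild type and 152.1 ± 9.30 CPM (SD, n = 3) in the null, a 1.47-fold difference (95% interval 1.24 to 1.73). On the log2 scale this was 0.55 ± 0.11 (SE), with an edgeR adjusted p of 0.0175. The call was lost without wild-type replicate 2 or 3 or null replicate 2 or 3, where the edgeR adjusted p was 0.0551 to 0.0714 and the log2 fold change 0.50 to 0.53. Per length the genotypes overlapped, from 47.0 to 62.7 TPM in wild type and from 42.2 to 49.3 TPM in the null, through wild-type replicate 4. *Kit* is also made by Leydig and mast cells. Of the 7 Leydig cell markers 0 were called by edgeR. An unadjusted p below 0.05 was found for 2 and DESeq2 called 2, beside 4133 and 2331 of all 13630 genes. The 7 markers summed to 280.8 to 567.4 CPM in wild type and 336.0 to 647.0 CPM in the null, and their part in the *Kit* level was not tested. Of the 6 mast cell markers, *Cpa3*, *Mcpt4*, *Tpsb2*, *Ms4a2* and *Cma1* stayed below 1 CPM in every library. *Hdc*, which other cells also make, lay between 42.7 and 61.6 CPM.

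Both *Kit* transcripts were measured in every library. Kit-201 was at 27.9, 29.4, 24.8 and 25.7 TPM in wild-type replicates 1 to 4 and at 18.4, 26.9 and 20.2 TPM in null replicates 1 to 3. Kit-204 was at 33.9, 31.1, 37.9 and 21.3 TPM in wild type and at 29.9, 22.4 and 21.98 TPM in the null. On this per-length scale each transcript overlapped between the genotypes. In CPM, the scale of the count test, Kit-201 ran from 97.5 to 116.9 in wild type and from 63.1 to 80.7 in the null, without overlap. Kit-204 ran from 84.7 to 149.4 CPM in wild type and from 67.3 to 102.9 CPM in the null, with overlap. The log2 fold change was 0.53 for each, with an SE of 0.11 for Kit-201 and 0.22 for Kit-204, and the edgeR adjusted p was 0.11 and 0.284. Kit-204 made up 53.0% ± 6.3 (SD, n = 4) of *Kit* TPM in wild type and 53.2% ± 8.3 (SD, n = 3) in the null, from 45.3% to 61.9% over the 7 libraries. The share differed by -0.16 percentage points (two-sided exact permutation test, p = 0.914, n = 4 and 3). With 4 against 3 libraries, 0.0571 is the smallest p that this test can give.

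**Figure D2:**
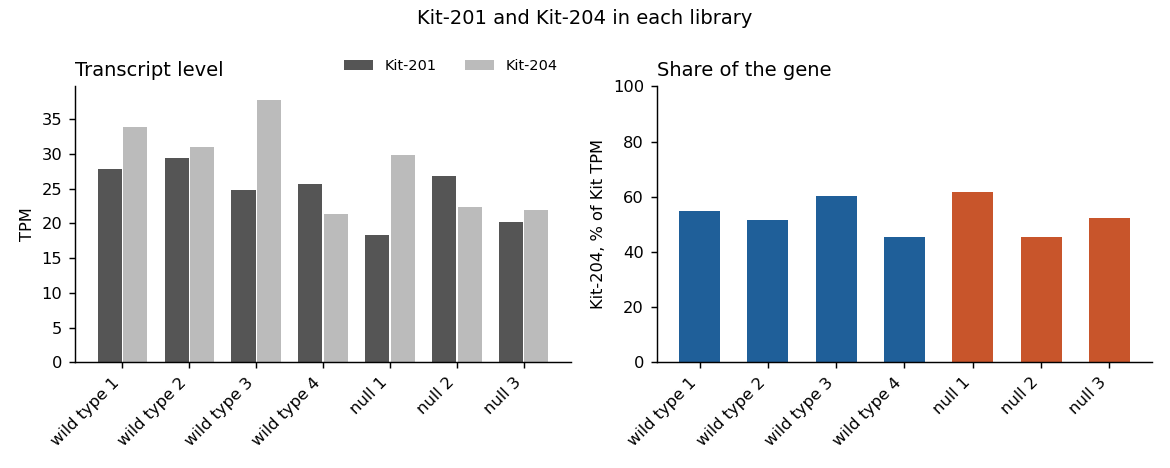
Left, TPM of Kit-201 (dark) and Kit-204 (light) in each library; right, Kit-204 as a percentage of *Kit* TPM in wild-type (blue) and *Meioc*-null (orange) libraries. The share lies between 45.3% and 61.9%, and the highest and nearly the lowest shares are both in null libraries.

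Across all genes' transcripts, the count test had little reach: 14 of 21920 transcripts, or 0.0639%, were called by edgeR, 3805 had an unadjusted p below 0.05, and DESeq2 called 7.46% higher in wild type. None of the 7 member transcripts that passed the filter was called by edgeR, and 3 of them had an unadjusted p below 0.05. DESeq2 called Kit-201 and Rhox13-201 higher in wild type, the latter the only *Rhox13* transcript in the tables. Their edgeR log2 fold changes were 0.53 and 0.83, each with an adjusted p of 0.11. Dmrt1-202, a shorter *Dmrt1* transcript, held 0 to 8.87 estimated counts per library and did not pass the filter, so that Dmrt1-201 held 99.4% to 100.0% of *Dmrt1* TPM in each library. *Dmrtb1*, *Sohlh1* and *Sohlh2* have 1 transcript each in the tables.

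The ligand moved the other way. *Kitl* was at 189.8, 187.6, 163.5 and 162.3 CPM in wild-type replicates 1 to 4 and at 258.9, 295.4 and 302.7 CPM in null replicates 1 to 3. All 3 null libraries lay above all 4 wild-type libraries, with a log2 fold change of -0.70 ± 0.09 (SE) and an edgeR adjusted p of 0.0053, and the call held without any 1 library. With the replicate number as a block in the fit, the *Kitl* call was lost (edgeR adjusted p = 0.0584). Per length, *Kit* was 0.740 to 0.873 times *Kitl* in the wild-type libraries and 0.285 to 0.427 times *Kitl* in the null libraries. The log2 ratio of their counts was 1.25 higher in wild type, without overlap, at the smallest p of the two-sided exact permutation test (p = 0.0571, n = 4 and 3). Of 10 Sertoli cell markers 9 were not called, and the list summed to 4613 to 4779 CPM in wild type and 4788 to 5521 CPM in the null. *Clu*, itself not called, held most of this sum, and the other 9 overlapped between genotypes, at 1095 to 1189 CPM and 1128 to 1195 CPM. The called one was *Gata4*, a transcription factor of testicular somatic cells, at 66.0 to 73.4 CPM in wild type and 84.8 to 92.3 CPM in the null, a call that held in 2 of the 7 fits that left out 1 library. Their part in the *Kitl* difference was not tested.

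**Figure D3:**
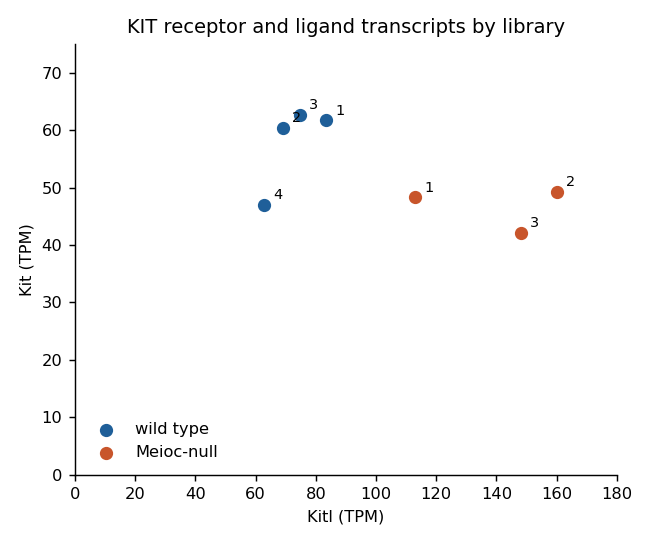
TPM of *Kit*, the receptor (vertical axis), against TPM of *Kitl*, its ligand (horizontal axis), in each wild-type (blue) and *Meioc*-null (orange) library, numbered by replicate. The null libraries lie at 113.0 to 160.2 TPM of *Kitl*, to the right of the wild-type libraries at 62.8 to 83.4 TPM, and wild-type replicate 4 shares its *Kit* level with the null libraries.

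Among the 23 genes of the KIT ligand and signalling list, all tested, 2 were lower and 0 were higher in wild type, and the list median was -0.11. Besides *Kitl*, the called gene was *Pik3cb*, a catalytic subunit of phosphoinositide 3-kinase, at 20.8 to 27.9 CPM in wild type and 29.8 to 38.9 CPM in the null (log2 fold change -0.50, edgeR adjusted p = 0.0427). That call held in 2 of the 7 fits that left out 1 library. The other 21, among them adaptors such as *Grb2* and *Gab2* and the kinase genes *Akt1*, *Akt2* and *Mtor*, did not pass. Of all 23, 5 had an unadjusted edgeR p below 0.05 and DESeq2 called 4, beside 4133 and 2331 of all 13630 genes. *Akt1* did not overlap between genotypes, at 142.8 to 146.2 CPM in wild type and 163.5 to 167.1 CPM in the null. Nor did *Grb2*, at 29.9 to 33.6 CPM and 34.2 to 46.7 CPM, while *Gab2*, *Akt2* and *Mtor* overlapped. *Pik3cd*, at 16.8 to 20.9 CPM and 21.9 to 32.7 CPM, and *Fyn*, at 178.9 to 191.4 CPM and 193.5 to 202.0 CPM, did not overlap either. The share of all genes with every wild-type library below every null library was not counted. These genes cannot be weighed against it. The highest fitted value of the list was that of *Src*, a kinase, at 0.25 (adjusted p = 0.457).

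*Rhox13* showed the largest fitted difference of the 6 members. It was at 50.3, 47.8, 43.8 and 50.5 CPM in wild-type replicates 1 to 4 and at 33.0, 20.9 and 26.2 CPM in null replicates 1 to 3. The wild-type libraries were close together, and null replicate 1 was the nearest to them. The means were 48.1 ± 3.08 CPM (SD, n = 4) and 26.7 ± 6.08 CPM (SD, n = 3), a 1.798-fold difference (95% interval 1.44 to 2.24). As a log2 fold change this was 0.85 ± 0.14 (SE), with an edgeR adjusted p of 0.0125. It was lost without null replicate 3, at an edgeR adjusted p of 0.0587, and kept without each of the other 6 libraries.

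The other genes of the *Rhox* cluster were mostly low. Of 33 annotated members, 19 passed the filter, 1 was called higher in wild type and 0 lower, with a list median of 0.46, and 4 were at 0 in every library. The called gene was *Rhox11*, a homeobox gene of the cluster, with 3, 12, 13 and 27 counts in wild-type replicates 1 to 4 and 1, 1 and 0 counts in null replicates 1 to 3. All null libraries were thus under 3 counts (edgeR adjusted p = 0.0192). The gene passed the filter on low values only through wild-type replicates 2, 3 and 4, the group in which it is high, and the call held in 2 of the 4 fits without 1 library in which the gene passed the filter. *Rhox5* and *Rhox8*, which Sertoli cells make, did not pass the test. *Rhox5* was at 38.9 to 47.7 CPM in wild type and 30.2 to 52.2 CPM in the null. Values of the *Rhox2*, *Rhox3* and *Rhox4* genes are uncertain one by one, since these copies are nearly identical and their reads were divided by estimation.

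*Dmrt1* was the most abundant of the 6 per length and differed little between genotypes. Its level was 285.0, 279.0, 265.4 and 238.2 CPM in wild-type replicates 1 to 4 and 249.2, 235.8 and 227.9 CPM in null replicates 1 to 3. Wild-type replicate 4 lay within the null range, and the other 3 wild-type libraries lay above it. The log2 fold change was 0.17 ± 0.08 (SE; 95% interval -0.02 to 0.35), with an edgeR adjusted p of 0.205. The interval leaves room for a 1.28-fold higher level in wild type. Sertoli cells also make *Dmrt1*, and the summed levels of their markers are given above; their part was not tested.

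*Dmrtb1* was the least abundant member and the most variable among wild-type pups. It was at 21.5, 16.8, 13.1 and 7.32 CPM in wild-type replicates 1 to 4, a 2.94-fold range, and at 13.6, 14.4 and 12.6 CPM in null replicates 1 to 3. All 3 null libraries lay inside the wild-type range. The log2 fold change was 0.11 ± 0.29 (SE; 95% interval -0.54 to 0.76), with an edgeR adjusted p of 0.8291. Without wild-type replicate 1 the sign turned, at -0.14 (edgeR adjusted p = 0.751).

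Of the 9 other DM domain genes, 7 were tested, 3 were higher and 0 lower in wild type, with a list median of 0.38. *Dmrtc2*, a DM domain gene of the germ line, was at 11.1, 16.1, 27.4 and 20.7 CPM in wild-type replicates 1 to 4 and at 4.59, 5.58 and 2.23 CPM in null replicates 1 to 3 (log2 fold change 2.21, edgeR adjusted p = 0.0114). *Dmrtc1c1* and *Dmrtc1c2*, neighbouring copies on the X chromosome, had log2 fold changes of 1.47 and 1.54 (adjusted p = 0.0136 and 0.00442); such copies are uncertain one by one. Without null replicate 3, *Dmrtc2* and *Dmrtc1c1* were no longer called, at adjusted p of 0.0512 and 0.0636. *Dmrta1*, another DM domain gene, was at 231.7 to 257.5 CPM in wild type and 226.5 to 252.3 CPM in the null (log2 fold change -0.01).

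The 5 genes that DMRT1 is known or presumed to regulate did not move together: 1 was higher, 1 was lower and 3 were not called, with a list median of 0.91. *Gm4969*, the *Meiosin* gene, whose protein acts with STRA8 at meiotic entry, was higher in wild type by 2.95 on the log2 scale (edgeR adjusted p = 0.00058). *Zbtb16*, a factor of undifferentiated spermatogonia, was lower, at 60.5 to 68.7 CPM in wild type and 84.9 to 161.1 CPM in the null (log2 fold change -0.86, edgeR adjusted p = 0.0213), and its call held in 3 of the 7 fits that left out 1 library. *Stra8* was at 126.0 to 410.6 CPM in wild type and 77.3 to 158.0 CPM in the null, with overlap (log2 fold change 1.14, edgeR adjusted p = 0.0948). *Crabp2*, a retinoic acid binding protein gene, and *Tbx1*, a T-box gene, were below 4 CPM in every library, with log2 fold changes of 0.91 and -0.15 (edgeR adjusted p = 0.0912 and 0.757).

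DMRT1 protein is a substrate of SCF ubiquitin ligases, and 2 of their 8 listed genes were higher and 1 was lower in wild type, with a list median of 0.13. *Cul1*, the scaffold subunit, was at 236.0 to 345.3 CPM in wild type and 200.3 to 233.5 CPM in the null (log2 fold change 0.45, edgeR adjusted p = 0.0458). The F-box genes *Fbxw7* and *Fbxw11* had log2 fold changes of 0.27 and -0.29 (adjusted p = 0.0499 and 0.0375). Each of the 3 calls held in 1 of the 7 fits that left out 1 library.

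*Sohlh2* and *Sohlh1* were not called. *Sohlh2* was at 111.0, 91.1, 71.1 and 77.6 CPM in wild-type replicates 1 to 4 and at 75.3, 56.9 and 72.5 CPM in null replicates 1 to 3. The groups overlapped through wild-type replicate 3. Its log2 fold change was 0.36 ± 0.16 (SE; 95% interval 0.01 to 0.71) with an edgeR adjusted p of 0.159. *Sohlh1* was at 23.95, 26.0, 27.3 and 26.1 CPM in wild-type replicates 1 to 4 and at 21.6, 25.9 and 19.96 CPM in null replicates 1 to 3. Null replicate 2 lay inside the wild-type range and the other 2 null libraries below it. For *Sohlh1* the log2 fold change was 0.20 ± 0.11 (SE; 95% interval -0.05 to 0.45) with an edgeR adjusted p of 0.252. Among wild-type libraries *Sohlh1* had the lowest coefficient of variation, 5.38%, close to 6.41% for *Rhox13* and 7.79% for *Dmrt1*. It was 20.1% for *Sohlh2* and 40.8% for *Dmrtb1*. In the null libraries it was 13.7% for *Sohlh1*, between 4.52% for *Dmrt1* and 22.8% for *Rhox13*.

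Of 8 germ cell genes known to lie downstream of SOHLH1 or SOHLH2 in testis or ovary, 7 were tested, 1 was higher and 0 lower in wild type, with a list median of -0.14. *Figla*, a bHLH gene best known from oocytes, was at 7.03 to 11.7 CPM in wild type and 3.70 to 4.42 CPM in the null (log2 fold change 1.19, edgeR adjusted p = 0.0118; 0.0587 without null replicate 3). *Sox3*, a factor of committed progenitors, was at 9.34 to 13.4 CPM in wild type and 11.4 to 20.4 CPM in the null and did not pass (log2 fold change -0.34, edgeR adjusted p = 0.336). None of the 7 E protein and ID genes, the dimer partners and inhibitors of bHLH factors, was called by edgeR. Of these 7, 4 had an unadjusted p below 0.05 and DESeq2 called 2, beside 4133 and 2331 of all 13630 genes. *Id1*, an inhibitor, had the highest fitted value (0.45, adjusted p = 0.0557) and *Tcf4*, an E protein gene, the lowest (-0.36, adjusted p = 0.057).

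**Figure D4:**
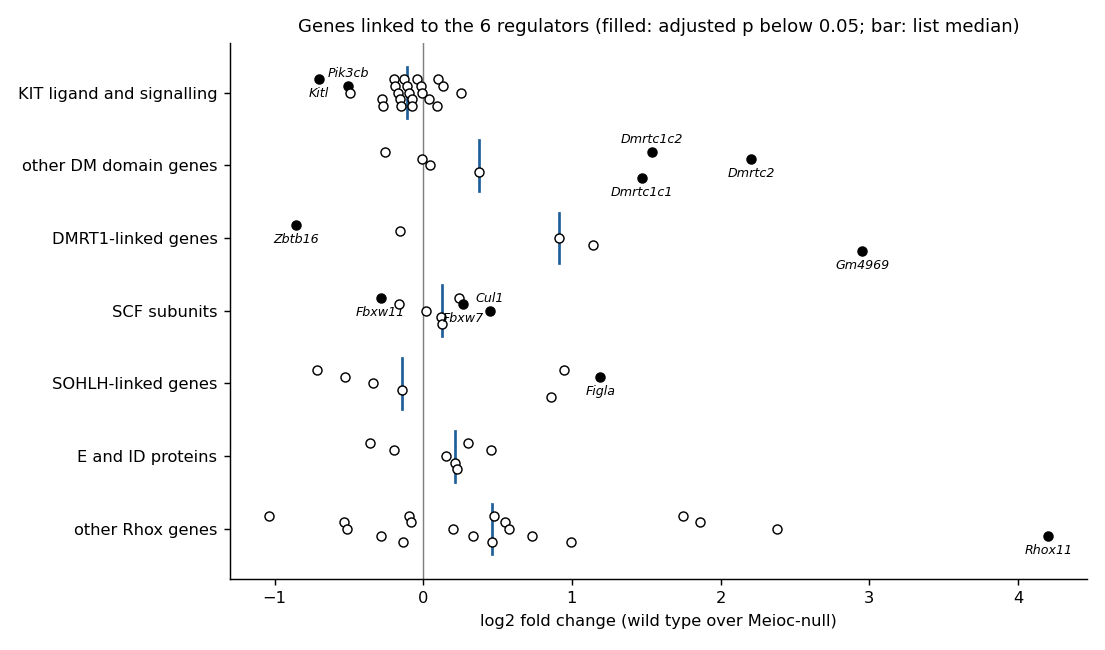
Log2 fold change (wild type over *Meioc*-null, horizontal axis) of each tested gene in the 7 lists of genes linked to the regulators; filled points were called and are named, and the blue bar is the list median. Most points of each list are open, *Kitl* is at -0.70 and *Gm4969* at 2.95, and *Rhox11* rests on 0 or 1 counts in the null libraries.

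Ratios between members within a library do not depend on library scaling. Of the 15 pairs, 4 had no overlap between the genotypes: *Rhox13* over *Dmrt1*, over *Sohlh1* and over *Sohlh2*, and *Kit* over *Dmrt1*. The mean log2 ratio of counts was higher in wild type by 0.71, 0.67, 0.52 and 0.38. Each of these 4 had the smallest p of the two-sided exact permutation test (p = 0.0571, n = 4 and 3; 0.214 after Benjamini-Hochberg adjustment over the 15 pairs). Each of the 15 pairs was written in the direction that is higher in wild type. *Rhox13* and *Kit*, the called genes with the largest fitted differences, therefore stand over the other members by construction. Their place as numerators adds no support to the calls. The share of pairs without overlap over all genes was not computed, so the count of 4 cannot be weighed against it. *Rhox13* over *Kit* was 0.33 higher, with overlap (exact permutation p = 0.286, n = 4 and 3). *Sohlh1* over *Dmrt1* differed least, by 0.04 (exact permutation p = 0.857, n = 4 and 3).

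Per length, the order of mean TPM over the 7 libraries was *Dmrt1* (141.3), *Rhox13* (87.9), *Sohlh2* (55.8), *Kit* (53.1), *Sohlh1* (22.8) and *Dmrtb1* (8.56). *Dmrt1* stood at the 92.9 percentile of the tested genes and *Dmrtb1* at the 32.2 percentile. *Sohlh2* and *Kit* were not ordered beyond their spread, since *Sohlh2* was the higher in 4 of 7 libraries. *Rhox13* was above *Sohlh2* in 7 of 7 libraries, although their ranges overlapped (58.7 to 116.3 and 45.4 to 79.4 TPM). The other neighbours did not overlap in range.

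The genotype differences of the members depend on what they are measured against. On the TPM scale, the log2 fold change of *Rhox13* was 0.62 (limma on log2(TPM + 1), adjusted p = 0.0194), and that of *Kit* was 0.30 and no longer called (adjusted p = 0.0884). *Dmrt1*, *Dmrtb1* and *Sohlh1* turned to -0.08, -0.20 and -0.04 there. The median of all genes was -0.23 on that scale, and relative to it *Kit* stood at 0.53 and *Rhox13* at 0.84. The direction of calls over all genes moved as well: 17.4% of the calls on log2(TPM + 1) were higher in wild type, beside 70.0% on TMM-scaled counts and 47.5% with no scaling beyond library size.

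Of 10 germ cell markers, 4 were higher in wild type (*Dazl*, *Mael*, *Tex15* and *Sycp3*), 1 was lower (*Nanos3*) and 5 were not called, *Ddx4* among them, with a list median of 0.25. The *Mael* call held in 4 and the *Sycp3* call in 6 of the 7 fits that left out 1 library. The 10 genes summed to 4248 to 5216 CPM in wild type and 3173 to 3437 CPM in the null, mostly from *Tex15* and *Dazl*. Without these 2 the sum was 1379 to 1483 CPM in wild type and 1080 to 1237 CPM in the null. *Tex15* alone was at 1850 to 2574 CPM in wild type and 1293 to 1503 CPM in the null. Scaled to these markers without *Sycp3*, *Kit* had a log2 fold change of 0.01 and *Rhox13* one of 0.31 (edgeR adjusted p = 0.947 and 0.102). On that scale *Dmrt1* and *Sohlh1* were lower in wild type, at -0.37 and -0.35 (edgeR adjusted p = 0.0154 and 0.0384). Of all 13630 genes, 10046 were called lower in wild type under the same scaling. The calls of *Dmrt1* and *Sohlh1* therefore do not set them apart from most genes. The median of all genes was then -0.55, so that relative to it *Kit* stood at 0.56, *Rhox13* at 0.86 and *Dmrt1* at 0.18. Scaled to *Ddx4* alone, a germ cell RNA helicase, *Rhox13* was called at 0.59 (edgeR adjusted p = 0.026) and *Kit* was not, at 0.32 (adjusted p = 0.105). The median of all genes was -0.24 on that scale, and relative to it *Rhox13* stood at 0.84 and *Kit* at 0.56. Another scale for the same counts moves all genes by nearly the same amount. The values relative to the median under these marker scalings were therefore nearly fixed in advance and add no support to those on TMM-scaled counts.

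**Figure D5:**
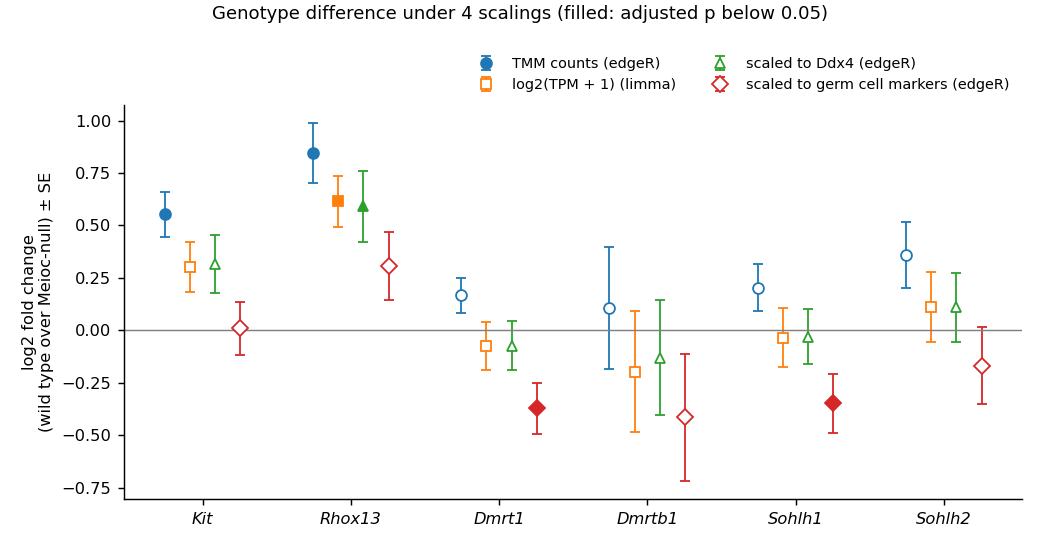
Log2 fold change of each regulator (wild type over *Meioc*-null; bars, SE) under 4 scalings of the same libraries; filled points had an adjusted p below 0.05. Every member is lowest when scaled to the germ cell markers, where *Kit* is at 0.01 and *Dmrt1* at -0.37, and *Rhox13* is above 0 under all 4.

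Other cell type markers give the setting of these values. Of 11 markers of undifferentiated spermatogonia, 10 were tested and 3, *Zbtb16*, *Lin28a* and *Nanos3*, were lower in wild type (the *Nanos3* call held in 2 of the 7 fits that left out 1 library); the list summed to 216.6 to 265.1 CPM in wild type and 325.7 to 504.7 CPM in the null. Of 6 markers of early prophase spermatocytes, *Meiob*, *Sycp1*, *Dmc1*, *Hormad1* and *Prdm9* were higher (*Meiob* and *Prdm9* in 4 of those 7 fits), and the sum was 922.2 to 1213 CPM in wild type and 434.5 to 569.7 CPM in the null. Of 6 other markers of differentiating spermatogonia, 1 (*Nanos3*, which also stands in the undifferentiated list) was lower and 0 were higher, with a list median of -0.27. Their sums were 342.3 to 601.1 CPM in wild type and 312.1 to 403.0 CPM in the null. *Stra8*, not called, held much of these sums, at 126.0 to 410.6 CPM in wild type and 77.3 to 158.0 CPM in the null. It was the only gene of that list fitted above 0, and the rest ran from -0.80 (*Sall4*) to -0.14 (*Ccnd1*). Late germ cell markers were near absent, with *Prm1* at 0 in every library and a sum of at most 7.61 CPM. Among somatic lists, 1 of 5 peritubular myoid markers, *Des*, was lower in wild type in the full fit but in 0 of the 7 fits that left out 1 library, and 0 of 5 endothelial and 0 of 6 macrophage markers were called by edgeR or DESeq2, with 1 of each list at an unadjusted p below 0.05. The part of these cell types in the *Kit* and *Rhox13* differences was not tested.

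For each member, the 3 other genes with the closest pattern over the 7 libraries were found by the root mean square difference in mean-centred log2 CPM. *Zfp189* and *Mfsd6* were among those nearest to *Kit*, at 0.085 and 0.094. *Ccnb1ip1*, *Nptx2* and *Srl* lay nearest to *Rhox13*, at 0.086 to 0.098. *Pfdn2*, *Nhlrc3* and *Cd2bp2* lay nearest to *Dmrt1*, at 0.032 to 0.039, and *Carm1*, *Ndor1* and *Rttn* nearest to *Sohlh1*, at 0.033 to 0.037. For *Sohlh2* these were *Fam187b*, *Trappc2* and *Cyb561*, at 0.076 to 0.080. Nearest to *Dmrtb1* were *Dusp2* at 0.118, *Nrap* at 0.199 and *Yod1* at 0.223, with *Dusp2* itself at only 0.656 to 2.13 CPM. The difference is not scaled to a gene's own spread, so a widely spread gene such as *Dmrtb1* tends to larger values. The values cannot be compared between members.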

How the data were processed

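RNA from the testes of each pup was sequenced after rRNA depletion as stranded single-end libraries. The authors trimmed reads with cutadapt 1.8 and quantified them with kallisto 0.44.0 (sequence-bias correction, stranded) on GENCODE Basic vM15 protein-coding transcripts; per the labels the build is mm10. The authors deposited estimated counts per transcript, without normalization, and TPM, renormalized over protein-coding transcripts. Here transcripts were matched by identifier to GENCODE vM21 (GRCm38); 119 of 43139 were not matched, held 0.247% to 0.282% of counts and stayed out of library sizes and tests. Counts were summed by gene and rounded.

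Genes or transcripts with TPM of at least 1 in at least 3 samples were tested with edgeR 4.0.16 (R 4.3.3; TMM, quasi-likelihood, no covariate, Benjamini-Hochberg over all features). The SE was the log2 fold change over the square root of F. Samples were grouped by the labels, and each library is 1 pup. On simulated counts of 13630 genes with 200 changed, 196 were recovered with 9 false calls, and on 21920 transcripts, 77 of 200 with 1 false call. Only features above a minimum mean count were changed, each by more on the log2 scale than the fitted difference of any member. The simulation therefore does not show how often changes as small as those of the members would be found. The smallest ratio of the squared difference between 2 libraries to counting noise was 3.75, so all 7 were kept as separate samples. The floor of 3 counts covers counting error only. Reads shared by transcripts were divided by estimation, which adds error to transcript values.

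Alternatives were DESeq2 1.42.0, RLE, no scaling, limma 3.58.1 on TPM with a pseudocount of 1 or 0.1 before log2, no filter or filterByExpr, each library omitted in turn, the replicate number as a block, and germ cell markers as the scale; *Ddx4* as the scale was chosen after seeing the data. The members and lists were chosen with earlier results of these data known. Named genes are the members, the called genes of each list, *Kitl*, *Stra8*, *Gm4969*, *Tbx1*, *Crabp2* and *Sox3*, the extremes of lists without other calls, called or near-absent markers, and the 3 genes nearest in pattern. *Meioc*, *Dmrta1*, *Rhox5*, *Rhox8*, *Hdc*, *Ddx4*, *Clu* and the uncalled *Grb2*, *Gab2*, *Akt1*, *Akt2*, *Mtor*, *Src*, *Pik3cd* and *Fyn* are named besides, chosen after their values were seen. One gene near *Kit* in pattern is not reported here. Spike-ins were not used here.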

Additional observations from a re-analysis of the deposited data

Results flagged for a closer look

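Of 37 values examined over the 4 wild-type libraries, 3 had a sample far from the others, measured as the gap to the nearest library divided by the group's range. Chance gives such a gap in about 1 in 20 groups. For *Kit* TPM the value was 0.856, with wild-type replicate 4 at 47.0 TPM and the other 3 at 60.4 to 62.7 TPM; in CPM the value was 0.533. For the log2 ratio of *Kit* over *Sohlh1* it was 0.921, with wild-type replicate 4 lowest, at 2.83, and the highest library at 3.21. For the log2 ratio of *Sohlh2* over *Dmrtb1* it was 0.929, with wild-type replicate 4 highest, at 3.41, and the lowest library at 2.37.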

How the results depend on the processing

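Counts of called genes moved from 1513 to 2331 with DESeq2, 2522 and 2506 with limma on log2(TPM + 1) and log2(TPM + 0.1), 109 with the replicate block, 10295 when scaled to the germ cell markers and 3708 when scaled to *Ddx4*, and with 1 library left out ranged from 129 (without null replicate 3) to 2177, and were 278, 305, 371 and 548 without wild-type replicate 3, wild-type replicate 2, null replicate 2 and wild-type replicate 4. Called transcripts moved from 14 to 2596, 57, 50 and 0 under the first 4 of these (1833 at an unadjusted p below 0.05 under the block) and to 1 without a filter on low values, and ranged from 1 to 440 with 1 library left out.

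Of the members, *Kit* lost its call on log2(TPM + 1) and log2(TPM + 0.1) (0.30 and 0.31), under the replicate block (0.63, edgeR adjusted p = 0.0581), scaled to germ cell markers (0.009) and scaled to *Ddx4* (0.32), and *Rhox13* lost it under the block (0.85, adjusted p = 0.0527) and scaled to germ cell markers (0.31). With 1 library left out, log2 fold changes ranged from 0.50 to 0.63 for *Kit*, 0.70 to 1.03 for *Rhox13* and -0.14 to 0.33 for *Dmrtb1*. The sign turned on log2(TPM + 1), log2(TPM + 0.1), germ cell marker and *Ddx4* scaling for *Dmrt1* (-0.075, -0.076, -0.373 and -0.073), *Dmrtb1* (-0.20, -0.23, -0.41 and -0.13) and *Sohlh1* (-0.035, -0.036, -0.349 and -0.03), and on germ cell marker scaling for *Sohlh2* (-0.17). The median of all genes was -0.226, -0.246, -0.55 and -0.244 under these 4 scalings; the cause was not tested.

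For transcripts, DESeq2 called Kit-201 (0.54) and Rhox13-201 (0.83); on the same 2 TPM scales the sign turned for Dmrt1-201 (-0.075 and -0.075), Dmrtb1-201 (-0.20 and -0.23) and Sohlh1-201 (-0.035 and -0.036), and Dmrtb1-201 ranged from -0.15 to 0.32 with 1 library left out. Log2 ratios whose sign turned with 1 library left out were *Sohlh1* over *Dmrtb1* (-0.11 to 0.45), *Dmrt1* over *Dmrtb1* (-0.10 to 0.34), *Sohlh2* over *Sohlh1* (-0.087 to 0.277) and *Sohlh1* over *Dmrt1* (-0.018 to 0.153), and the Kit-204 share difference ranged from -4.02 to 4.21 percentage points. The same replicate numbers stand in both groups, and the labels do not say whether they pair the libraries. Same-numbered libraries correlated at -0.012, -0.089 and -0.168 in their deviations from the group means, and differently numbered ones at -0.083 to 0.165. With so few libraries this cannot exclude a pairing.

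At 3 counts per library, 0.146 to 0.24 CPM, *Rhox11* and the mast cell markers other than *Hdc* are near the limit of detection.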

Other observations

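The wild-type libraries differed among themselves in *Dmrtb1* and in *Stra8*, in opposite orders. *Dmrtb1* was at 21.5, 16.8, 13.1 and 7.32 CPM in wild-type replicates 1 to 4, and *Stra8* at 126.0, 148.7, 263.1 and 410.6 CPM in the same libraries. In the null libraries, *Stra8* was at 158.0, 87.6 and 77.3 CPM and *Dmrtb1* at 13.6, 14.4 and 12.6 CPM. *Dmrt1* also fell over wild-type replicates 1 to 4, at 285.0, 279.0, 265.4 and 238.2 CPM. The estimated counts per library rose in that order, from 12537852 to 20552702. *Sohlh1*, at 23.95 to 27.3 CPM, and *Rhox13*, at 43.8 to 50.5 CPM, spread less than *Dmrtb1* and *Stra8* over the same wild-type libraries. These relations were seen after the values were known and were not tested.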
